A study of Mus musculus with 4 samples.

Results

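The 10 genes described here sense oxygen or answer to its lack: Hif1a, Epas1, Vhl, Egln1, Egln3, Bnip3, Car9, Ndrg1, Adm and Ankrd37. They were taken by symbol from the 15424 genes of the deposited expression table, and all 10 were found. The table comes from subcutaneous mouse tumors in nude mice, a host without mature T cells. The transplanted cells, R728T1, are 1 line that the labels describe as non-SMCs derived from the Rb/P53 mouse model. The labelled cell type is small cell lung cancer. The control shRNA was directed at luciferase (shLuc) and the knockdown shRNA at Taz (shTaz). There are 2 samples per group, and both groups share the line, the host and the Rb/P53 background. The labels give neither the shRNA sequences nor the age, sex or number of the mice. RNA was sequenced, and the authors deposited 1 column per group in FPKM (fragments scaled to transcript length and library total). This unit divides by transcript length, so levels of different genes can be set side by side, but it does not correct for GC content. No value per sample was used, so no difference below has a replicate check, an SD or a test, and the sequencing depth is unknown.

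Cells read oxygen through the hypoxia-inducible factors. HIF-1alpha and HIF-2alpha, encoded by Hif1a and Epas1, pair with the stable partner ARNT and switch on genes of glycolysis, blood vessel growth, acid handling and mitophagy. When oxygen is present, prolyl hydroxylases such as PHD2 (Egln1) and PHD3 (Egln3) mark the alpha subunits, and the von Hippel-Lindau protein (Vhl) then brings them to a ubiquitin ligase for destruction. This control acts on the protein, so the mRNA of Hif1a and Epas1 need not follow HIF activity, whereas the mRNA of target genes such as Egln3, Bnip3, Car9, Ndrg1, Adm and Ankrd37 is widely used as a readout. Solid tumors commonly hold poorly oxygenated regions where these targets are on.

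HIF binds a short core, ACGTG or GCGTG, so the bases before each start site were searched for it on both strands (CACGT and CACGC on the other strand). RefSeq promoters (GRCm38.p6) were matched for 8 of the 10 genes, all but Epas1 and Ndrg1. A match lay within the 250 bases before the start site in 7 of these 8. The core is short and common: 38.6% of all 32851 RefSeq promoters of that length held at least 1 match, as did 55.9% of the 10634 promoters of measured genes, those whose mean over both columns was 1 FPKM or more. Overlapping matches were counted as 1 site. Bnip3 had 4 sites, Ankrd37 3, Hif1a, Egln1 and Adm 2 each, Egln3 and Car9 1 each, and Vhl none. Thus 5 of the 8 had 2 or more sites, where 23.5% of the promoters of measured genes did. The 8 promoters had GC contents from 50.8% to 86%. Among promoters of measured genes with a GC content of 50% or more, 60.3% held a match and 26.6% held 2 or more sites. In Hif1a and Bnip3 1 site read CACGTG, which is also the E-box bound by MYC and other factors. The 4 promoters printed here belong to HIF target genes that differed between the columns in unlike ways: Bnip3 and Car9 were higher in the shTaz column, Adm was nearly equal and Ankrd37 was lower. They lie at chr7:138909507-138909756 (minus strand), chr4:43506776-43507025 (plus), chr7:110627407-110627656 (plus) and chr8:45999851-46000100 (minus), are written 5′ to 3′ on the strand of the gene, and have the matches in capitals.
Bnip3: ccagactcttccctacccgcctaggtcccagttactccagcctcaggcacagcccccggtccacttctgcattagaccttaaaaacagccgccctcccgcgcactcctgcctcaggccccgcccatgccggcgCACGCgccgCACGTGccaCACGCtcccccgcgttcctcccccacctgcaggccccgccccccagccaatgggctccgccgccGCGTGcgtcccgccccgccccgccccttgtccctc
Car9: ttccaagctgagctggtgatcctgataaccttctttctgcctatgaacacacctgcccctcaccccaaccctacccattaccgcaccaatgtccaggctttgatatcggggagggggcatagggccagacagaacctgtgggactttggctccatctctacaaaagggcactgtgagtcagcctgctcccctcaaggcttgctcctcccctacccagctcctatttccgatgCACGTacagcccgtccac
Adm: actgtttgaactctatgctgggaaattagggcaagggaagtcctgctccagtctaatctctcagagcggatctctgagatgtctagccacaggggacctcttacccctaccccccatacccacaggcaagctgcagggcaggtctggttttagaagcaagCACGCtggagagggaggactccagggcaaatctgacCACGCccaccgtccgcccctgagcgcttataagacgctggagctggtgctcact
Ankrd37: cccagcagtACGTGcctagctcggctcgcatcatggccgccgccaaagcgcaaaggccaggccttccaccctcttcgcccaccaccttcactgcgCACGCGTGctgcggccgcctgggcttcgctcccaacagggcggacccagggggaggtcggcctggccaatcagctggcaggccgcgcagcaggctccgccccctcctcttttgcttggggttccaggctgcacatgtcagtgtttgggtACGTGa
Bnip3, higher in the shTaz column, and Ankrd37, lower in it, both carried several sites, and a match is a description of the letters, not evidence that HIF was bound.

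**Figure D1:**
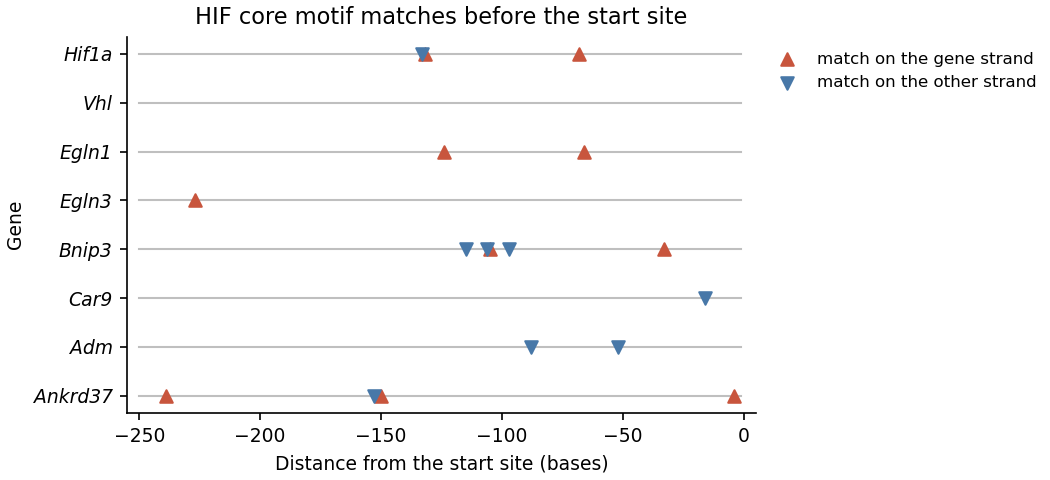
Matches to the core ACGTG or GCGTG in the 250 bases before the RefSeq start site of 8 genes; the horizontal axis is the distance from the start site in bases, upward triangles are matches on the strand of the gene and downward triangles on the other strand. Bnip3 and Ankrd37 have the most sites, 4 and 3, and Vhl has none.

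The order of the levels was nearly the same in both columns. Ndrg1 was the most abundant of the 10 genes, followed by Car9, Egln3, Bnip3, Egln1 and Ankrd37 in both groups. Below these, Vhl, Epas1, Adm and Hif1a followed in the shLuc column, and Hif1a, Vhl, Epas1 and Adm in the shTaz column. Hif1a thus had rank 10 of 10 in the control and rank 7 in the knockdown as deposited, the only change of place beyond neighbours. This rank in the knockdown did not hold with the trend over GC content taken out, described below. Hif1a then stayed slightly under Epas1 in the shTaz column (-0.06 on the log2(FPKM + 1) scale). Ndrg1 exceeded 94.3% of the 11650 measured genes in shLuc and Hif1a 32.3% of them. Without a spread between samples it cannot be said which neighbours in this order differ.

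**Figure D2:**
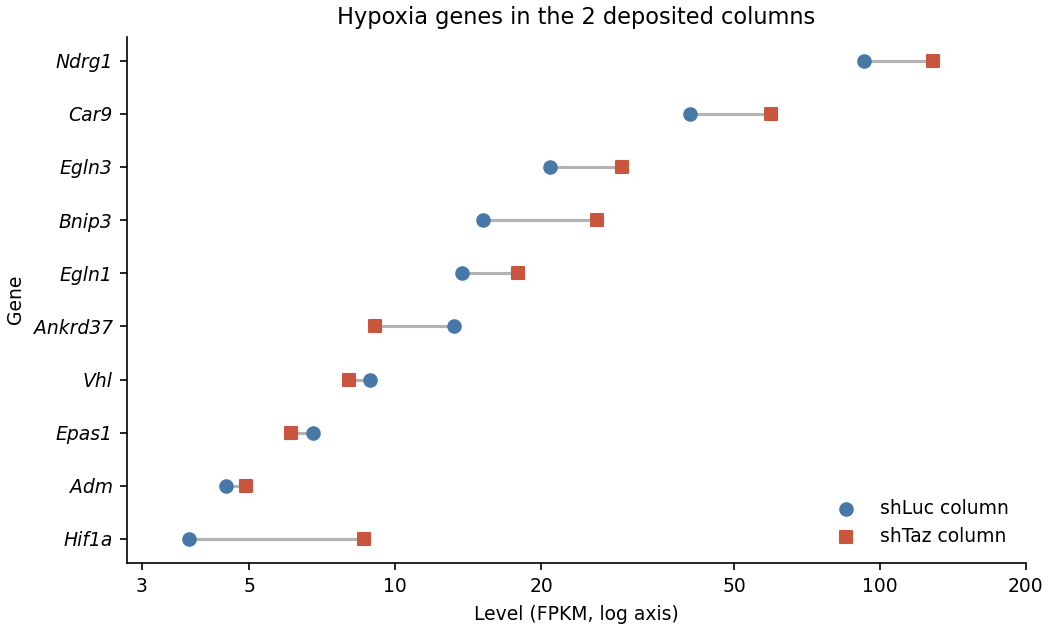
Level of each of the 10 genes in FPKM on a log axis, with the shLuc column as circles and the shTaz column as squares, 1 value per group and no error. The square lies to the right of the circle for 7 genes and to the left for Ankrd37, Vhl and Epas1, and the gap is widest for Hif1a.

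In the shTaz column 7 of the 10 genes were higher and 3 lower, where 58.3% of all measured genes were higher. The difference is given as log2((shTaz FPKM + 1) / (shLuc FPKM + 1)), and a value of 1 or more in size is called 2-fold. The median over the 10 genes was 0.42, against 0.12 over all 11650 genes, and 6 of the 10 lay above that median of all genes. Only Hif1a reached 2-fold, 1 gene of 10, where 7.21% of all genes did so in either direction, 3.96% higher and 3.25% lower. A share of 1 in 10 is near that background.

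The alpha subunits differed in direction. Hif1a (Entrez 15251, chromosome 12, 73901375 to 73947530, plus strand, mm10) was at 3.75 FPKM in shLuc and 8.61 FPKM in shTaz, a ratio of 2.30 and a log2 difference of 1.02. The call rests at the threshold. It was lost with median-ratio scaling (0.89), quantile normalization (0.84), with the trend over transcript length taken out (0.77), with that over GC content taken out (0.51) or without either (0.43). Epas1 (Entrez 13819, chromosome 17, 86753700 to 86833410, plus strand) was at 6.76 and 6.09 FPKM, a difference of -0.13. The level of Hif1a relative to Epas1 was 0.555 in shLuc and 1.41 in shTaz as deposited. That change of order was lost with the GC trend removed (41.3% GC for Hif1a and 52.5% for Epas1). On the log2(FPKM + 1) scale the level of Hif1a minus that of Epas1 was -0.71 in shLuc and 0.44 in shTaz, and with that trend removed it was -0.06 in shTaz.

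Epas1 is known for strong expression in endothelium, and most endothelial markers were also lower in the shTaz column. Of 10 markers 9 counted as measured and 7 of these 9 lay below the median of all genes, none 2-fold. The 10 summed to 163 FPKM in shLuc and 108 FPKM in shTaz, and none was at 0. The differences were uneven: Plvap was the lowest (-0.88), Pecam1 (-0.08) and Cdh5 (-0.10) were nearly equal, and Kdr (0.45) and Emcn (0.17) were higher. The median difference was -0.59, or -0.36 with the GC trend removed. Epas1 differed by -0.13, or -0.14 with that trend removed. The part of endothelial cells in the Epas1 value was not tested. In whole tumors fewer cells of a type and less RNA per cell cannot be told apart.

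The partners and cofactors of the alpha subunits were a little higher throughout. All 6 measured ones lay above the median of all genes, none 2-fold, with differences from 0.26 to 0.58 and a median of 0.40, or 0.16 with the length trend removed. Ep300, the acetyltransferase p300 that HIF recruits, was at 2.73 and 4.58 FPKM in shLuc and shTaz, and Ncoa1, a steroid receptor coactivator, at 1.51 and 2.52 FPKM. Arnt, the common partner, was at 14.6 and 18.5 FPKM. Hif1a amounted to 0.257 of the Arnt level in shLuc and 0.465 in shTaz as deposited. With the GC trend removed the difference was 0.06 for Arnt in place of 0.32, and 0.51 for Hif1a in place of 1.02. Cited2, an inhibitor that competes with HIF for p300, was at 23.7 and 28.6 FPKM. Hif3a and Cited4 were not listed.

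Of the genes that hydroxylate and destroy HIF, the hydroxylases Egln1 and Egln3 were higher and Vhl was slightly lower. Egln1 (Entrez 112405, chromosome 8, 124908587 to 124949324, minus strand) encodes PHD2, the main oxygen sensor for HIF-1alpha. It was at 13.7 FPKM in shLuc and 17.9 FPKM in shTaz, a difference of 0.36. Egln3 (Entrez 112407, chromosome 12, 54178981 to 54203860, minus strand) encodes PHD3, which HIF itself induces. It was at 20.9 and 29.4 FPKM, a difference of 0.48. Vhl (Entrez 22346, chromosome 6, 113623959 to 113631633, plus strand), the substrate receptor of the ligase, was at 8.86 and 8.02 FPKM, a difference of -0.13. Its difference and that of Epas1 turned positive when the columns were scaled to equal sums, at 0.08 and 0.07, though both stayed under the median of all genes, which was then 0.34.

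The third hydroxylase differed from these. Egln2, or PHD1, was at 31.3 FPKM in the shLuc column, the most abundant of the 3, and at 22.5 FPKM in the shTaz column, where Egln3 exceeded it. The level of Egln3 relative to Egln2 was 0.666 and 1.31 in the shLuc and shTaz columns, and that of Egln1 relative to Egln2 0.438 and 0.796. The ratio of Egln3 to Egln1 moved less, from 1.52 to 1.64. Egln2 has a GC-rich transcript (62.2%), and with the GC trend removed its difference was 0.02 in place of -0.46.

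Over the oxygen sensors and degradation genes outside the 10, none of 10 measured was 2-fold different, 6 lay above the median of all genes, and the list median was 0.17. The elongins, which join the von Hippel-Lindau protein to the cullin, stood at the ends. Elongin C, listed under its older symbol Tceb1, was at 33.2 and 59.8 FPKM in shLuc and shTaz. Elongin B, listed as Tceb2, was at 541 and 344 FPKM. Their transcripts differ in GC content, 38.2% for Tceb1 and 61.1% for Tceb2, and with the GC trend removed the differences were 0.24 and -0.22, in place of 0.83 and -0.65. The list median was then -0.08.

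Among the HIF targets of the 10 genes, Bnip3 differed most as deposited. Bnip3 (Entrez 12176, chromosome 7, 138890836 to 138909519, minus strand) encodes a mitochondrial outer membrane protein that starts mitophagy. It was at 15.2 FPKM in shLuc and 26.0 FPKM in shTaz, a ratio of 1.71 and a difference of 0.74. Its relative Bnip3l, or NIX, was at 13.1 and 18.6 FPKM. Of 7 mitochondrial targets outside the 10, 2 lay above the median of all genes, none was 2-fold different, and the median was -0.29, or -0.07 with the GC trend removed. Ndufa4l2, which tunes the respiratory chain in hypoxia, was at 6.68 and 3.13 FPKM, and Cox4i2, an alternative subunit of cytochrome oxidase, at 1.87 and 0.892 FPKM. The 2 lower genes have GC contents of 60.7% and 56.8%, against 41.6% for Bnip3 and 41.9% for Bnip3l. With the GC trend removed the difference was 0.24 for Bnip3, -0.02 for Bnip3l, -0.49 for Ndufa4l2 and -0.40 for Cox4i2.

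Car9 (Entrez 230099, chromosome 4, 43506966 to 43513729, plus strand) encodes carbonic anhydrase IX, a membrane enzyme that keeps hypoxic cells from acidifying and a widely used tissue marker of hypoxia. It was at 40.5 FPKM in shLuc and 59.6 FPKM in shTaz, a ratio of 1.47 and a difference of 0.55. Its transcript has a GC content of 53.9%, and genes within 1 percentage point of it had a median difference of -0.05. With the GC trend removed the difference was 0.60. Other carbonic anhydrases were far less abundant. Car13, a cytosolic form, was at 2.48 and 6.11 FPKM and reached 2-fold, the only one of 5 measured genes for acid handling to do so. Its difference was 1.03 as deposited and lost the call in 4 of 9 alternatives, at 0.53 with the GC trend removed. The alternatives that only change the filter could not alter this value. The monocarboxylate carrier gene Slc16a1 was at 9.31 and 16.2 FPKM. Over these 5 the median difference was 0.58, or 0.38 with the GC trend removed, and Car4 was not listed.

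Ndrg1 (Entrez 17988, chromosome 15, 66929318 to 66969640, minus strand) encodes a cytoplasmic stress protein that hypoxia and metal chelation induce. It was at 92.9 FPKM in shLuc and 129 FPKM in shTaz, a ratio of 1.39 and a difference of 0.47. The ratio of Car9 to Ndrg1 was close in both columns, 0.436 and 0.463. The other NDRG genes were less abundant and mixed: Ndrg2, linked to differentiation, was at 11.0 and 6.55 FPKM, Ndrg4 at 3.37 and 4.85 FPKM, and Ndrg3 at 9.85 and 9.43 FPKM.

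Adm (Entrez 11535, chromosome 7, 110627661 to 110629820, plus strand), which encodes the vasodilator peptide adrenomedullin, was nearly equal. It was at 4.47 FPKM in shLuc and 4.92 FPKM in shTaz, a difference of 0.11, close to the median of all genes. The difference turned to -0.10 with quantile normalization. Its receptor genes did not move as one. Ramp2, the accessory protein that turns the receptor Calcrl into an adrenomedullin receptor, was at 17.5 and 6.56 FPKM and 2-fold lower (-1.29, and -0.97 with both trends removed), and Ramp3 was at 7.29 and 4.38 FPKM. Calcrl was at 0.842 and 1.53 FPKM, and Ackr3, a scavenger receptor listed as Cxcr7, at 16.7 and 23.3 FPKM. Ramp2 is known as an endothelial gene, and its lower value stands beside the mostly lower endothelial markers given above. Their part was not tested.

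Of the 6 HIF targets among the 10, Ankrd37 alone was lower in the shTaz column as deposited. Ankrd37 (Entrez 654824, chromosome 8, 45996902 to 46005707, minus strand) encodes a small ankyrin repeat protein and is a direct HIF-1 target. It was at 13.2 FPKM in shLuc and 9.09 FPKM in shTaz, 68.6% of the control level and a difference of -0.50. Its difference was the lowest of the 10 as deposited, and it lay below the median of all genes in each of the 10 settings run. Its transcript is the shortest of the 10, at 927 bases, and with the length trend removed the difference was -0.23. In the annotation it overlaps Ufsp2 and Lrp2bp on the opposite strand, Lrp2bp from position 45999303 to the end of the Ankrd37 span, and the promoter printed above, placed by the RefSeq start site, lies inside that span. Ufsp2 was at 6.42 and 7.09 FPKM. The strand setting of the library is not given in the sources used here, so reads of overlapping genes on opposite strands cannot be told apart. Antisense genes also overlap Hif1a, Bnip3, Car9, Ndrg1 and Adm. On the same strand, the protein-coding gene Gm49321 overlaps Hif1a and the entry AC096777.1 overlaps Epas1, and a known strand setting would not separate those reads.

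The wider HIF program was mixed. Outside the 10 genes, 92 of 105 genes in the 10 pathway lists were measured, and 3 of them were 2-fold higher and 2 lower, with a median of 0.27 and 54 above the median of all genes. Glycolysis and glucose uptake genes had a median of 0.19, with 11 of 20 above the median of all genes and none 2-fold different. In that list Hk2, the inducible hexokinase, was at 9.14 and 16.9 FPKM in shLuc and shTaz, and Pdk1, the kinase that holds pyruvate back from the mitochondria, at 7.75 and 14.4 FPKM. The abundant Gapdh was at 1125 and 1066 FPKM and Aldoa at 441 and 443 FPKM.

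Secreted HIF targets went both ways. Angptl4, a lipase inhibitor, was at 26.4 and 56.3 FPKM in shLuc and shTaz and 2-fold higher, and Pgf, the placental growth factor, was at 16.0 and 3.93 FPKM and 2-fold lower. The Angptl4 difference of 1.06 lost the call in 4 of 9 alternatives, at 0.95 with the GC trend removed, and that of Pgf, -1.79, kept it in all 9. The 9 include changes of the filter, which could not alter either value. Vegfa was at 84.5 and 132 FPKM, Igfbp3 at 198 and 104 FPKM and Pdgfb at 44.9 and 24.0 FPKM. Of the 10 measured genes in this list 4 lay above the median of all genes, and the list median was -0.15, which turned to 0.09 with the GC trend removed. Epo was not listed.

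The list of feedback, demethylase and metabolic targets was mostly higher, with 14 of 20 genes above the median of all genes and a median of 0.52, or 0.20 with the GC trend removed. Ccng2, an unusual cyclin that halts the cell cycle, was at 4.26 and 9.68 FPKM in shLuc and shTaz and 2-fold higher, the only call in that list. Its difference was 1.02 as deposited and lost the call in 5 of 9 alternatives, at 0.56 with the GC trend removed. A change of the filter could not alter it. Bhlhe40, a repressor that HIF induces, was at 39.3 and 57.9 FPKM, the lipid droplet gene Hilpda at 22.3 and 34.7 FPKM and Jmjd6 at 29.1 and 18.5 FPKM. Among 6 collagen-modifying enzymes, none 2-fold different, Lox, the lysyl oxidase, was at 31.2 and 59.0 FPKM and Loxl2 at 31.0 and 42.7 FPKM, while Plod1 (82.7 and 80.8 FPKM) and Plod2 (9.48 and 9.17 FPKM) were nearly equal. The median of these 6 was 0.12, that of all genes, or -0.06 with the GC trend removed.

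**Figure D3:**
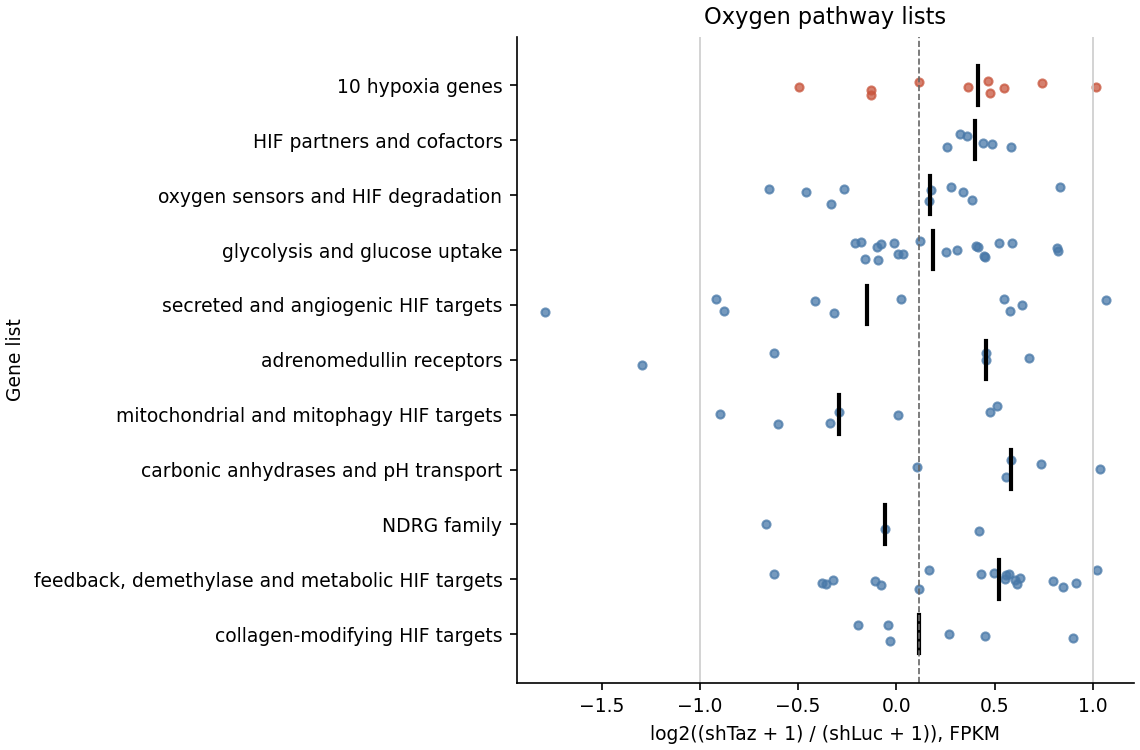
Log2 difference, shTaz against shLuc, of each measured gene in the 10 hypoxia genes and the 10 pathway lists; black bars are list medians, the dashed line is the median of all genes (0.12) and the grey lines mark 2-fold. The 10 hypoxia genes spread from -0.50 to 1.02, and Pgf and Ramp2 are the points below -1.

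The deposited table carries functional terms, and 86 of its genes have the term response to hypoxia, among them 6 of the 10, the ones without it being Car9, Ndrg1, Adm and Ankrd37. Of the 63 other measured genes with it, 26 lay above the median of all genes, and their median was 0.01. None was 2-fold higher and 2 were 2-fold lower, where 3.96% of all measured genes were higher and 3.25% lower. The lower ones were Mt3, a metallothionein gene, at 29.4 and 4.22 FPKM in shLuc and shTaz, and Aldh3a1, an aldehyde dehydrogenase gene, at 7.05 and 1.19 FPKM. The term covers regulators and bystanders as well as HIF targets.

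Over all genes the difference followed base composition, and the 10 genes did not all lie along that trend. Over 11055 genes with a transcript match, the median difference was 0.56 in the lowest of 10 equal groups by GC content and -0.38 in the highest. Hif1a (41.3% GC) and Bnip3 (41.6%) have AT-rich transcripts, and genes within 1 percentage point of them had median differences of 0.49 and 0.47. Egln1 (56.0%) and Car9 (53.9%) have GC-rich ones, and genes like them had medians of -0.16 and -0.05. With the GC trend removed the order changed: Car9 (0.60) came first, then Egln1 (0.52), Hif1a (0.51), Egln3 (0.40), Ndrg1 (0.34) and Bnip3 (0.24). Adm was then at 0.0043, Epas1 at -0.14, Vhl at -0.29 and Ankrd37 at -0.58, and none of the 10 was 2-fold different.

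**Figure D4:**
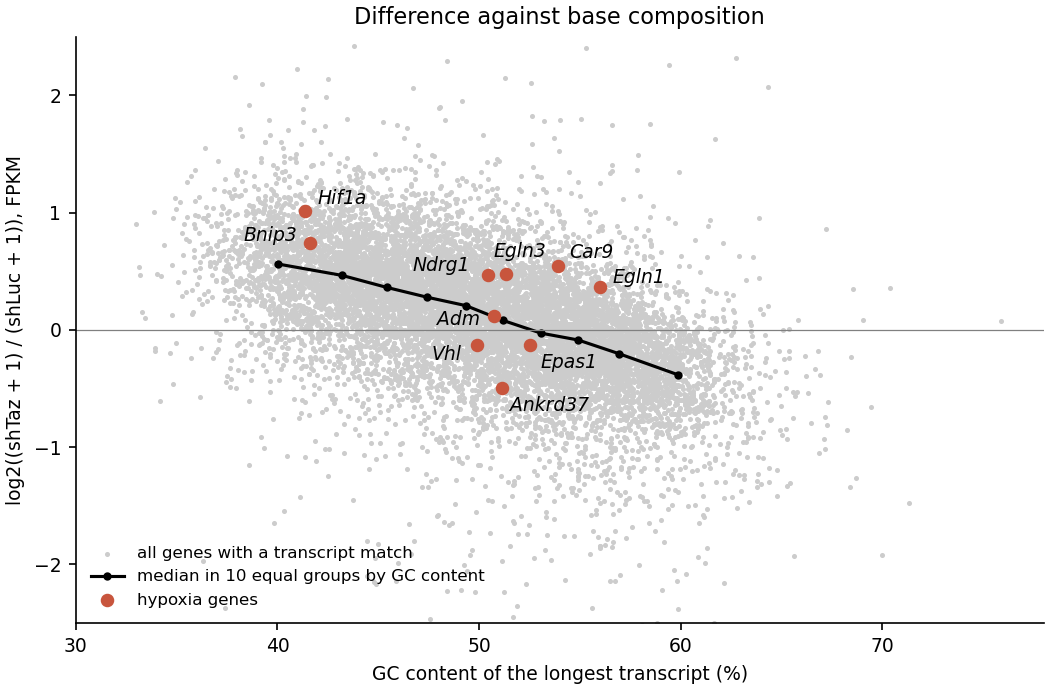
Log2 difference, shTaz against shLuc, against the GC content of the longest transcript for 11055 genes (grey), with the median in 10 groups of equal size (black line) and the 10 hypoxia genes (red); 46 genes lie outside the axes. Hif1a and Bnip3 sit near the high left end of the line, while Car9 and Egln1 sit above it on the right.

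Of the 10 genes, all but Adm kept their side of the median of all genes in the settings run. Hif1a, Bnip3, Car9, Egln3, Ndrg1 and Egln1 lay above it with the deposited values and in each of the 9 alternatives, and Vhl, Epas1 and Ankrd37 lay below it in each. Adm lay on either side. Relative to that median the difference of Hif1a ranged from 0.43 to 1.04, that of Car9 from 0.41 to 0.65, that of Egln3 from 0.34 to 0.49 and that of Ankrd37 from -0.67 to -0.23. The settings reuse the same 2 columns, so they say nothing about variation between tumors.

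**Figure D5:**
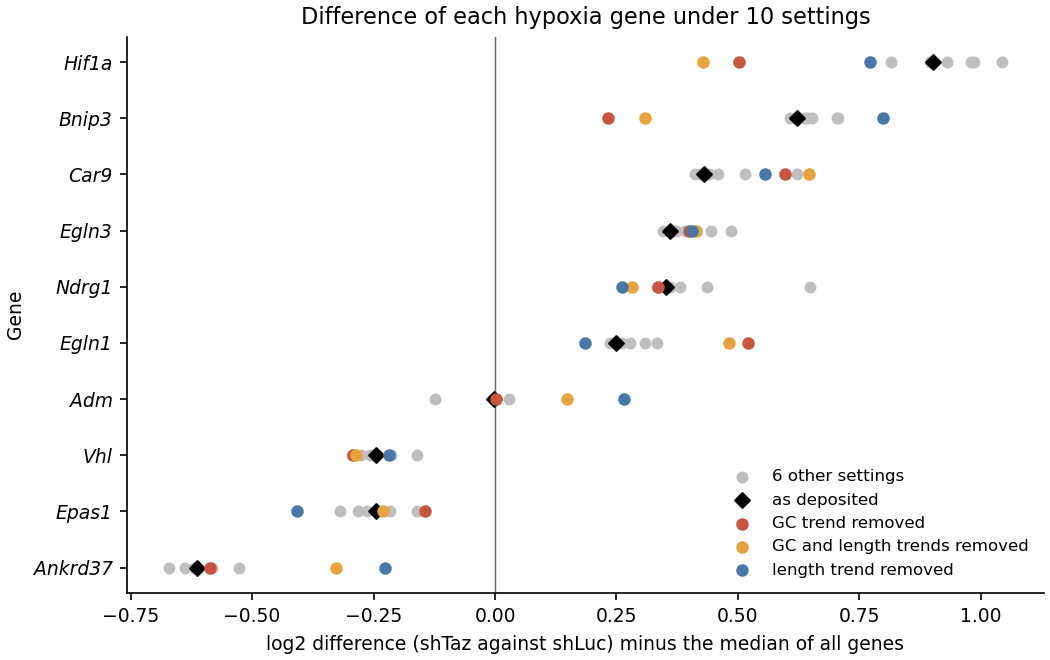
Log2 difference of each of the 10 genes, shTaz against shLuc, minus the median of all genes, under 10 settings: the deposited values (black diamonds), removal of the GC trend, the length trend or both (colored circles) and 6 other settings (grey; 5 for Adm, which is under the stricter filter of 5 FPKM). Hif1a and Bnip3 move toward 0 with the GC trend removed, whereas Car9 and Egln1 move away from it.

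The columns also differed in cell type markers and in the targeted gene. Wwtr1, which encodes TAZ, was at 23.4 and 15.1 FPKM in shLuc and shTaz, a difference of -0.60. Taz, the older symbol of Tafazzin, was at 13.7 and 9.50 FPKM, a difference of -0.48. Neither was 2-fold lower. Neutrophil markers summed to 6.61 and 56.0 FPKM (7 of 8 listed, 2 at 0 in each column, 3 measured and all 3 above the median of all genes) and skeletal muscle markers to 15.7 and 40.9 FPKM (8 listed, 3 at 0 in the shLuc column, 5 of 6 above that median). Most of the neutrophil sum in shTaz came from S100a8 and S100a9. S100a8 was listed at 0 in shLuc and at 18.6 FPKM in shTaz, and S100a9 at 0.810 and 29.2 FPKM. Csf3r, at 3.93 and 7.10 FPKM, made up most of the shLuc sum. Cxcr2 (0.867 and 0.694 FPKM), Mmp8 (0.169 and 0) and Camp (0.836 and 0) were lower in shTaz. In the skeletal muscle list Tnnc2, at 12.4 and 5.86 FPKM, made up most of the shLuc sum and was the only measured marker lower in shTaz. Fibroblast markers summed to 2172 and 1380 FPKM (9 listed, 5 of 9 2-fold lower) and macrophage markers to 3837 and 3873 FPKM (10 listed, 6 of 10 above that median). Col1a1, at 1375 and 841 FPKM, made up most of the fibroblast sum in both columns. Col3a1 (372 and 371 FPKM) was nearly equal, and Pdgfra (8.75 and 13.5 FPKM) was the only fibroblast marker higher in shTaz. The macrophage markers were uneven, with C1qa at 1868 and 1470 FPKM and Lyz2 at 920 and 1309 FPKM. The part of these cell types in the values of the hypoxia genes was not tested. Defining markers of the labelled cell type, small cell lung cancer, were uneven: Neurod1, Chga and Calca were not listed, Insm1 was at 0.169 and 0 FPKM and Syp at 0.557 and 0.447 FPKM, whereas Ncam1 was at 39.8 and 43.8 FPKM, Uchl1 at 10.1 and 1.51 FPKM and Nkx2-1 at 2.51 and 0.939 FPKM.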

How the data were processed

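Per the labels' protocols, RNA was taken from frozen tumors with Trizol and libraries followed standard Illumina protocols. Trim Galore, TopHat and the build mm10 are named in the submitters' processing notes; versions, the FPKM program, the annotation and the strand setting are not given in the sources used here. The authors deposited FPKM values in 1 column per group, whose heading is shared by the labels of both samples; whether a column is a mean, a joint estimate or 1 library is not stated, and depth is unknown. FPKM does not correct for GC content or for a few very abundant RNAs.

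Differences were computed on log2(FPKM + 1) as deposited, over 11650 genes whose mean of both columns was 1 FPKM or more. No test was possible with 1 column per group, and 2-fold is a size rule. Length and GC content are those of the longest GENCODE M21 transcript, found for 94.9% of these genes. Trends were removed by lowess (span 0.3, statsmodels 0.14.6). Removal of the GC trend was tested on simulated data with a straight-line trend and changes larger than those of the 10 genes. Removal of the length trend, alone or with the GC trend, was not tested in this way. Promoters came from RefSeq, GRCm38.p6. The members and lists were chosen with earlier results of these data known. Named genes were all 10 members, Wwtr1 and Taz, and from each pathway list up to 4 genes 2-fold different or else the 2 that differed most; other genes of the lists, the annotation term and the motif were chosen after values were seen. Alternatives were a pseudocount of 0.1 FPKM, a filter at 5 FPKM or none, quantile normalization, median-ratio scaling, and taking out the GC or length trend, and, added after seeing the data, removal of both trends and scaling of the columns to equal sums.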

Additional observations from a re-analysis of the deposited data

How the results depend on the processing

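No paired analysis was possible because the columns carry no replicate number, and no replicate could be left out. Of the 89 values computed for single genes under the 9 alternatives, 81 kept their direction and their side of 2-fold. These 81 include the values under a filter at 5 FPKM or none. A filter leaves the value of a single gene unchanged by construction, so those values could not move. The Hif1a call was lost in 5 (0.89, 0.84, 0.77, 0.51 and 0.43). Adm (-0.10, quantile normalization), Epas1 (0.074) and Vhl (0.081, columns scaled to equal sums) turned sign. The number of the 10 genes at 2-fold was 1 as deposited and 0 in the same 5 alternatives, quantile normalization, median-ratio scaling and taking out the GC trend, the length trend or both. Where a setting changes a value through fewer genes or a rescaled column the reason lies in its construction; otherwise the cause was not tested.

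All medians that follow are relative to the median of all genes, which the scalings moved by up to 0.22. As deposited they were 0.30 for the 10 genes, 0.29 for HIF partners, 0.06 for sensors and degradation, 0.07 for glycolysis, -0.26 for secreted targets, 0.34 for adrenomedullin receptors, -0.41 for mitochondrial targets, 0.47 for acid handling, -0.17 for the NDRG family, 0.41 for feedback and metabolic targets and 0.0013 for collagen-modifying targets.

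With a pseudocount of 0.1 FPKM, 1544 genes were 2-fold different (840 as deposited), acid handling was at 0.66 and collagen-modifying targets at -0.011. With no filter, secreted targets were at -0.062 and acid handling at 0.33. With a mean of at least 5 FPKM, 434 genes were 2-fold different and the 10 genes (9 left) were at 0.44, sensors at -0.083, glycolysis at 0.22, adrenomedullin receptors at -0.65, mitochondrial targets at -0.024 and feedback targets at 0.52. With median-ratio scaling, collagen-modifying targets were at -0.014. With quantile normalization, sensors were at -0.031, glycolysis at 0.29, secreted targets at -0.026, mitochondrial targets at -0.19 and collagen-modifying targets at 0.19. With the GC trend removed, 516 genes were 2-fold different and sensors were at -0.086, glycolysis at 0.18, secreted targets at 0.090, adrenomedullin receptors at -0.15, mitochondrial targets at -0.069, the NDRG family at -0.38, feedback targets at 0.19 and collagen-modifying targets at -0.062. With the length trend removed, HIF partners were at 0.17, secreted targets at -0.011, adrenomedullin receptors at 0.21, mitochondrial targets at -0.015 and collagen-modifying targets at -0.083. With both trends removed, 491 genes were 2-fold different and sensors were at -0.00089, glycolysis at 0.19, secreted targets at 0.17, adrenomedullin receptors at -0.22, mitochondrial targets at -0.044, acid handling at 0.31, the NDRG family at -0.43, feedback targets at 0.16 and collagen-modifying targets at -0.12. With the columns scaled to equal sums, 1737 genes were 2-fold different and acid handling was at 0.58. The split of 2-fold genes moved too: 461 higher and 379 lower as deposited, 996 and 548 with the lower pseudocount, 295 and 485 under median-ratio scaling, 294 and 455 under quantile normalization, 166 and 350, 293 and 392, and 188 and 303 with the GC trend, the length trend and both removed, and 1409 and 328 with equal sums.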
